A study of Mus musculus with 24 samples.

Results

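The comparison set 4 mouse brain libraries labelled E4-10 against 4 labelled E3-10, which is 8 of the 24 libraries of the series. The members are the libraries whose names end in these codes, with column headers 10, 12, 14 and 16 (E4-10) and 9, 11, 13 and 15 (E3-10). E3 and E4 are codes for the 2 arms of the study and 10 is 1 of 3 time codes (05, 10, 15). The labels spell out none of them and give no genotype, strain, age or dissection, although the series title concerns ApoE4. Polyadenylated RNA of whole tissue labelled brain was sequenced, so every value is a bulk level, in which fewer cells of a type and less RNA per cell cannot be told apart. The titles name March for libraries 1 and 2 of both groups and April for 3 and 4. Within a month they number the libraries of both groups together as biological replicates. Whether each came from an animal of its own is not given, so p-values measure the spread between libraries. Libraries are written as group and number, with the number taken from the library name and not from the title. Levels are CPM, counts scaled to the size of the library, given in the order of libraries 1, 2, 3 and 4.

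Tissue content differed among the 8 libraries. E3-10 1, E4-10 2 and E3-10 4 were rich in hindbrain: the 19 measured cerebellum and hindbrain genes averaged 6.70, 3.44, 3.87 and 8.32 log2 CPM in E3-10 and 3.52, 7.51, 3.06 and 3.30 in E4-10. E3-10 thus held 2 such libraries and E4-10 held 1, and the edgeR values given here come from fits with a term for hindbrain-rich against other libraries, unless stated otherwise. The term was chosen from the expression of these same libraries. Total counts ran from 42.5 to 99.5 M (M, mega), and all but E3-10 2 lay at or below 57.3 M.

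Arteries and arterioles of the brain are wrapped in smooth muscle cells, which contract through myosin sliding on smooth muscle actin, and capillaries are covered by pericytes. Fibroblasts of the meninges surround the brain, follow larger vessels inward, lay down collagens and proteoglycans and carry many solute transporters. These cell types make up a small part of whole brain RNA, and many of their genes, though not all, are read at low levels.

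E4-10 had lower levels of smooth muscle genes and of genes of meningeal fibroblasts than E3-10. Of 40 measured meningeal fibroblast genes all 40 had a log2 fold change (E4-10 minus E3-10) below 0, with a median of -0.72, and of 21 smooth muscle genes 19 were below 0, with a median of -0.58. Over all 18778 genes tested 51.2% were below 0 and the median was -0.00. In 20 of the 40 meningeal genes and 9 of the 21 smooth muscle genes all 4 E4-10 libraries lay below all 4 E3-10 libraries, as they did in 1.35% of all genes tested (253 genes). The gene lists behind these counts were chosen with earlier results of these data known, so the counts are not an independent test. No single gene passed in edgeR's quasi-likelihood test: 0% of the 18778 genes (0 genes) had a Benjamini-Hochberg adjusted p under 0.05, the smallest was 0.244, and 770 genes (4.1%) had an unadjusted p under 0.05. limma-voom called 0 as well (787 genes at an unadjusted p under 0.05). DESeq2 called 48 genes lower (0.256%) and 17 higher (0.0905%). Of the 48, 27 were on the lists of vessel wall, fibroblast, matrix and adhesion genes described here, and the lists share members with each other. The share of all genes tested that lie on these lists was not counted, so 27 of 48 has no background beside it. The differences below are therefore given as values with their standard error (SE), and a DESeq2 p is named wherever one is printed.

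Lmod1, a leiomodin that nucleates actin filaments in smooth muscle, was at 6.55, 7.74, 7.33 and 4.39 CPM in E3-10 and at 3.07, 2.71, 3.56 and 3.11 CPM in E4-10. The groups did not overlap, and E3-10 4, a hindbrain-rich library, was the lowest of E3-10. Means were 6.50 ± 1.49 CPM in E3-10 and 3.11 ± 0.347 CPM in E4-10 (SD, n = 4 each), and the fitted level was 2.21-fold lower in E4-10 (log2 fold change -1.14, SE 0.18, edgeR adjusted p = 0.244, DESeq2 adjusted p = 1.11e-05). The difference was -1.10 on the log2 CPM scale among the 5 other libraries and -0.87 among the 3 hindbrain-rich ones.

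**Figure D1:**
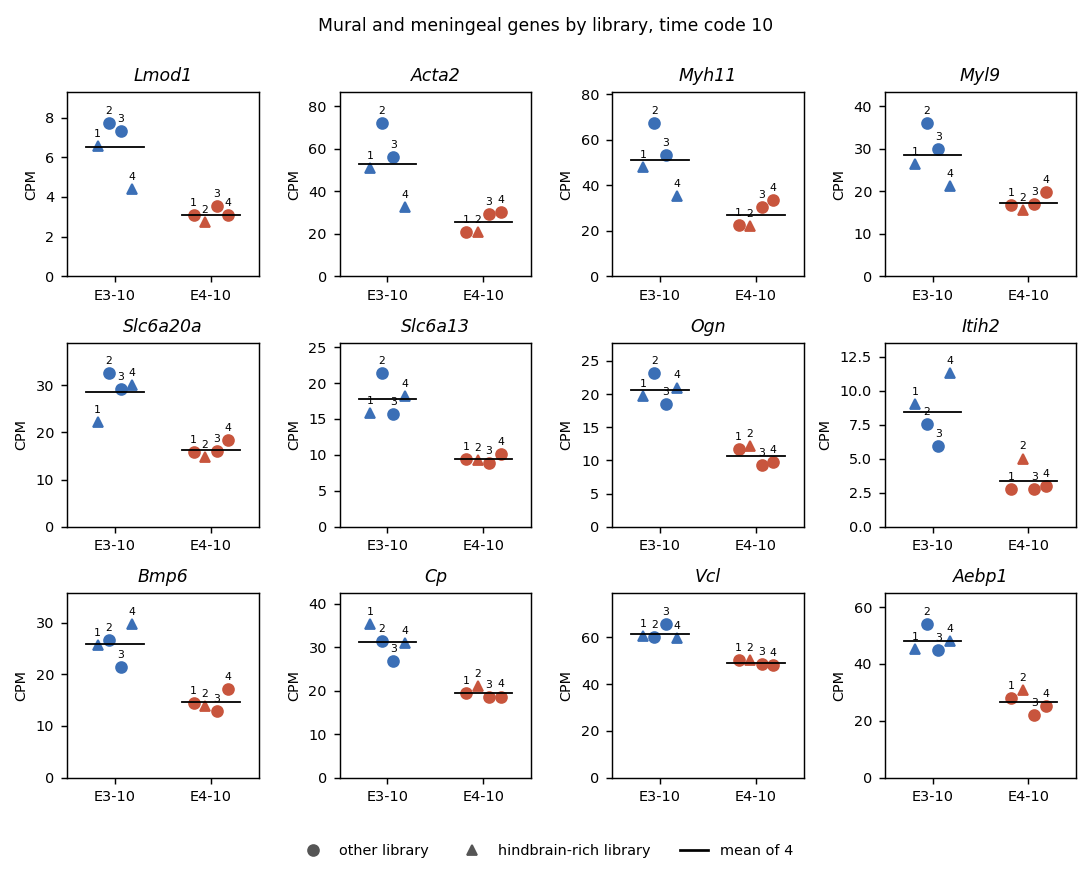
CPM (y axis, from 0) of 12 genes in the 4 E3-10 (blue) and 4 E4-10 (red) libraries, numbered as in the text, with triangles for hindbrain-rich libraries and a line at the mean of 4. In all 12 genes the highest E4-10 library sits below the lowest E3-10 library, with the smallest ratio for Myh11, where they are at 33.5 and 35.4 CPM.

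Other contractile genes separated the groups in a like way. Acta2, smooth muscle actin, was at 50.8, 72.2, 55.8 and 32.5 CPM in E3-10 and 21.0, 20.6, 29.2 and 30.4 CPM in E4-10 (log2 fold change -1.16, SE 0.18). Myh11, the smooth muscle myosin heavy chain, was at 48.1, 67.5, 53.3 and 35.4 CPM and 22.3, 21.9, 30.6 and 33.5 CPM (-1.02, SE 0.16). Myl9, a regulatory myosin light chain, was at 26.4, 36.2, 30.0 and 21.3 CPM and 16.9, 15.7, 16.9 and 19.7 CPM (-0.79, SE 0.12). All 3 separated the groups without overlap, each had an edgeR adjusted p of 0.244, and in each E3-10 2 was the highest and E3-10 4 the lowest of E3-10. Cnn1, the actin-binding calponin of smooth muscle, had the widest difference among the contractile genes named here, at 2.37, 2.81, 2.40 and 1.15 CPM in E3-10 and 0.181, 0.594, 0.662 and 1.05 CPM in E4-10 (-1.88, SE 0.49). Pln, phospholamban of the calcium pump, overlapped in 1 pair of libraries, at 4.48, 5.08, 5.19 and 3.06 CPM and 2.41, 1.96, 2.11 and 3.18 CPM (-0.98, SE 0.21).

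Of the 21 contractile genes 13 had an unadjusted edgeR p under 0.05 and were lower, against 2.43% of all genes tested. DESeq2 called 6 of them lower, against 0.256% of all genes. In 12 of the 21, E4-10 lay below E3-10 within both the hindbrain-rich and the other libraries, as 3.54% of all genes did. Des, an intermediate filament of muscle (-0.65, SE 0.19), Tpm2, a tropomyosin (-0.51, SE 0.13), and Smtn, smoothelin (-0.53, SE 0.15), did not overlap between groups. The 2 members above 0 were Tpm1 (0.08, SE 0.16) and Casq2 (0.10, SE 0.30), and both overlapped. Tpm1, a tropomyosin also used outside muscle, was at 144 to 215 CPM in E3-10 and 127 to 264 CPM in E4-10. Synpo2, a member also kept on the thalamus list, was at 70.6 CPM in E3-10 3 and at 12.8 to 21.3 CPM in the other 7. The 1 contractile gene not tested, Tagln, was at 0 to 0.143 CPM in all 8 libraries, and its RefSeq gene model overlaps that of Pcsk7. The list mean was 3.66, 3.68, 3.64 and 3.30 log2 CPM in E3-10 and 2.91, 3.06, 2.96 and 3.21 in E4-10, so the groups did not overlap and E3-10 4 lay nearest to E4-10.

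Smooth muscle genes are classically driven by serum response factor through the CArG box, and genes of stretch and adhesion also by TEAD factors through the core CATTCC. The 250 bases upstream of the RefSeq start sites (GRCm38.p6, the build of the sequence table and not of the counts) are shown for 4 genes that separated the groups, with capitals marking CArG boxes, their looser form and CATTCC or its reverse complement GGAATG. A CArG box was counted in its strict form, CC and GG around 6 bases that are all A or T, and the looser form, added after the strict search was seen, has 1 other base among the 6. Lmod1 is read from chr1:135324563-135324812 (+ strand), Acta2 from chr19:34255374-34255623 (- strand), Myl9 from chr2:156775214-156775463 (+ strand) and Vcl from chr14:20929148-20929397 (+ strand), each 5′ to 3′ along its gene.
Lmod1: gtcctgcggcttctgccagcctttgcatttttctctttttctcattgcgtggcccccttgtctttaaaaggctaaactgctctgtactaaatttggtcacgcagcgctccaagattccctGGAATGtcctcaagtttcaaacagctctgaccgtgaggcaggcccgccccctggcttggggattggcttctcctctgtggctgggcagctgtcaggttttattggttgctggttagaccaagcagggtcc
Acta2: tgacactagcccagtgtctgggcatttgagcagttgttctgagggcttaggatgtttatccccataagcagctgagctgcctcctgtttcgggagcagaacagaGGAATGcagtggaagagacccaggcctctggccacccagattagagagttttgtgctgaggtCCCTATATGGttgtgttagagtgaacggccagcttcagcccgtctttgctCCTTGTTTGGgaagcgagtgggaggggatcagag
Myl9: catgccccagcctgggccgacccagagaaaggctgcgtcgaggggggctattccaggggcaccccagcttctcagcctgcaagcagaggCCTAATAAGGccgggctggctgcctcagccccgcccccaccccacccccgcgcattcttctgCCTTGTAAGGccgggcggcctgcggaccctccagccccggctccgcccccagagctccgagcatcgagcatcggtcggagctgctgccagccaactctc
Vcl: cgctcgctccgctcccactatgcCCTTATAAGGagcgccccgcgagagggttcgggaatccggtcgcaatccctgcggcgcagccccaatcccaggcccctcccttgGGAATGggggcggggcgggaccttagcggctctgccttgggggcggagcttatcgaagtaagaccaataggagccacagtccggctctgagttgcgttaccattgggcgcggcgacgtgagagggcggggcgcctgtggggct
Acta2 held 2 CArG boxes of the looser form, CCCTATATGG starting 84 and CCTTGTTTGG starting 34 bases upstream of the start site, and GGAATG 146 bases upstream. Myl9 held a strict CArG box 161 bases upstream, 1 of the looser form 99 bases upstream and no CATTCC. Vcl held a strict CArG box 227 and GGAATG 143 bases upstream. Lmod1 held GGAATG 130 bases upstream, and neither form of the CArG box was found in its window. The search covered both strands of this window only. The windows of Bmp6 and Slc6a20a held no match to any of the 3. A strict CArG box lay in the window of 1 of 17 contractile genes with an entry, 1 of 30 meningeal genes and 2 of 33 adhesion genes, and in 1.62% of all 27025 genes of the table. The looser form lay in 3 of 17, 3 of 30 and 5 of 33, and in 8.33% of all genes. CATTCC lay in 6 of 17, 13 of 30 and 11 of 33, and in 14.4% of all genes.

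Meningeal fibroblast genes were lower in E4-10 across transporters, proteoglycans and secreted proteins. Slc6a20a, an imino acid transporter, was at 22.3, 32.5, 29.3 and 30.1 CPM in E3-10 and 15.9, 14.9, 16.0 and 18.3 CPM in E4-10. The lowest E3-10 library, E3-10 1, was above the highest of E4-10, E4-10 4. Means were 28.5 ± 4.40 and 16.3 ± 1.48 CPM (SD, n = 4 each), a 1.81-fold lower fitted level (log2 fold change -0.86, SE 0.12, edgeR adjusted p = 0.244, DESeq2 adjusted p = 1.03e-05). Slc6a13, a GABA transporter of meninges, was at 15.8, 21.3, 15.7 and 18.3 CPM and 9.41, 9.27, 8.91 and 10.1 CPM (-0.93, SE 0.13). The 4 E4-10 libraries lay close together for this gene, at 8.91 to 10.1 CPM. Slc13a4, a sulfate transporter, was at 37.2, 43.0, 29.8 and 45.3 CPM and 19.7, 17.6, 15.1 and 24.2 CPM (-1.01, SE 0.19), also without overlap.

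Secreted products showed the same separation. Ogn, the small proteoglycan osteoglycin, was at 19.7, 23.1, 18.4 and 21.0 CPM in E3-10 and 11.7, 12.1, 9.26 and 9.71 CPM in E4-10 (-0.92, SE 0.13). Itih2, an inter-alpha-trypsin inhibitor chain that binds hyaluronan, was at 9.05, 7.54, 5.90 and 11.3 CPM and 2.77, 5.02, 2.81 and 2.99 CPM (-1.15, SE 0.15), with the smallest p of all genes tested (edgeR adjusted p = 0.244, DESeq2 adjusted p = 4.23e-07). In both groups Itih2 was highest in hindbrain-rich libraries. Ptgds, prostaglandin D synthase of the leptomeninges, was at 916, 1044, 820.3 and 896 CPM and 486, 615, 427 and 412 CPM (-0.89, SE 0.14). Aebp1, a collagen-binding matrix protein, was at 45.4, 54.1, 44.9 and 48.1 CPM and 27.9, 30.9, 22.0 and 25.2 CPM (-0.84, SE 0.12). None of the 4 overlapped between groups. The growth factor Igf2 was at 222, 241, 181 and 293 CPM and 106, 116, 87.1 and 145 CPM (-0.99, SE 0.19), lower among the hindbrain-rich libraries (-1.13 on the log2 CPM scale) and among the others (-0.92). In both groups Igf2 and Slc13a4 were highest in library 4 and lowest in library 3. The mean of the choroid plexus genes described below had the same extremes (4.86, 3.66, 3.42 and 4.95 log2 CPM in E3-10, 2.34, 3.14, 1.10 and 4.09 in E4-10). The part of choroid plexus tissue in the levels of these 2 genes was not tested.

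Of the 40 meningeal genes 32 had an unadjusted edgeR p under 0.05 and were lower (2.43% of all genes). DESeq2 called 17 of the 40 lower (0.256% of all genes), and 26 were lower within both kinds of library (3.54%). The log2 fold changes of the 40 ran from -1.15 to -0.01. Foxc1, a transcription factor of the meninges, overlapped at -0.31 (SE 0.14). Dcn, the proteoglycan decorin, was at 32.1, 30.3, 35.2 and 40.4 CPM in E3-10 and 34.3, 22.6, 14.0 and 13.3 CPM in E4-10 (-0.67, SE 0.29), and overlapped, with E4-10 1 above E3-10 1 and E3-10 2. The list mean was 4.37, 4.58, 4.36 and 4.56 log2 CPM in E3-10 and 3.85, 4.00, 3.65 and 3.76 in E4-10, with the lowest E3-10 library above the highest E4-10 library.

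Collagens and other matrix genes were lower in E4-10 to a smaller extent. Col3a1, Col1a1 and Col1a2, fibrillar collagens that form the fibres of meninges and vessel adventitia, separated the groups without overlap. Col3a1 was at 14.5, 12.8, 12.9 and 13.5 CPM in E3-10 and 5.60, 7.85, 4.96 and 8.54 CPM in E4-10 (-0.94, SE 0.18). Col1a1 was at 23.6, 33.3, 31.7 and 32.6 CPM and 18.1, 20.9, 13.3 and 19.6 CPM (-0.75, SE 0.17), and Col1a2 at -0.64 (SE 0.14). Col4a1 of the basement membrane, which endothelial cells and pericytes also make, overlapped, at 42.0, 46.8, 36.8 and 31.3 CPM and 36.5, 36.4, 35.1 and 42.3 CPM (-0.09, SE 0.13). Of 29 collagens 25 were below 0 (median -0.38), 6 had an unadjusted edgeR p under 0.05 and 5 did not overlap, against 2.43% and 1.35% of all genes in this direction. Among 44 matrix glycoprotein and crosslinking genes 40 were below 0 (median -0.35), 22 had an unadjusted edgeR p under 0.05 and 11 did not overlap. The matrix proteoglycan Bgn was at 39.1, 44.3, 32.0 and 36.4 CPM and 23.8, 24.4, 20.6 and 26.7 CPM (-0.66, SE 0.13), and Loxl2, a collagen crosslinking enzyme, at 3.78, 2.45, 1.86 and 2.99 CPM and 0.602, 1.66, 0.868 and 1.29 CPM (-1.15, SE 0.28).

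Vinculin, Vcl, which links integrin adhesions to actin, showed a small difference with little spread. It was at 60.6, 60.1, 65.8 and 59.9 CPM in E3-10 and 50.3, 50.2, 48.5 and 48.0 CPM in E4-10, without overlap. Means were 61.6 ± 2.80 and 49.3 ± 1.14 CPM (SD, n = 4 each), a 1.25-fold lower fitted level (log2 fold change -0.32, SE 0.08, edgeR adjusted p = 0.741, DESeq2 adjusted p = 0.0494). Flna, the actin crosslinker filamin A, was at 78.8, 93.1, 75.3 and 100.1 CPM and 52.9, 67.9, 59.6 and 60.4 CPM (-0.49, SE 0.11), and Flnc, filamin C of muscle, was at -0.88 (SE 0.25). Talin, Tln1, which activates integrins, was at -0.19 (SE 0.09), without overlap but with E4-10 2 and E3-10 3 at 74.8 and 75.0 CPM. Of 42 adhesion and actin linkage genes 36 were below 0 (median -0.22). Of these 42, 11 were lower with an unadjusted edgeR p under 0.05 (2.43% of all genes) and 8 were lower without overlap (1.35%). The RefSeq model of Vcl overlaps 3 other gene models (Ap3m1 among them), and it is not known whether the counting used strand.

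Bmp6, a bone morphogenetic protein that signals through SMAD proteins, was at 25.6, 26.6, 21.4 and 29.8 CPM in E3-10 and 14.4, 13.9, 13.0 and 17.1 CPM in E4-10. The groups did not overlap, and the difference was present among the hindbrain-rich (-0.96 on the log2 CPM scale) and the other libraries (-0.68). Means were 25.8 ± 3.44 and 14.6 ± 1.75 CPM (SD, n = 4 each), a 1.74-fold lower fitted level (log2 fold change -0.80, SE 0.14, edgeR adjusted p = 0.346, DESeq2 adjusted p = 0.000801). Of the other ligands Bmp7 was at 15.9, 25.8, 20.2 and 18.9 CPM and 16.2, 12.6, 12.9 and 16.1 CPM (-0.55, SE 0.13), overlapping through E3-10 1, Bmp4 was at -0.46 (SE 0.19) and Bmp5 at -0.40 (SE 0.27). The target gene Id1, an inhibitor of helix-loop-helix factors, was at 14.1, 14.6, 15.9 and 12.7 CPM and 12.5, 12.6, 11.5 and 11.6 CPM (-0.26, SE 0.11), without overlap. The targets Id3 (-0.23, SE 0.15) and Smad6 (-0.41, SE 0.26) overlapped. Of the secreted inhibitors Fst, follistatin, was higher in E4-10, at 0.255, 1.42, 0.951 and 0.478 CPM and 1.81, 0.490, 4.71 and 4.26 CPM (1.24, SE 0.44), with overlap, and Nog, noggin, was at 0.22 (SE 0.17). Of 41 genes of the pathway 28 were below 0 with a median of -0.04. An unadjusted edgeR p under 0.05 was found for 5 lower and 1 higher (2.43% and 1.67% of all genes), 3 were lower without overlap (1.35%) and 6 were lower within both kinds of library (3.54%).

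Cp, ceruloplasmin, a copper-carrying ferroxidase that lets iron leave cells, was at 35.3, 31.5, 26.8 and 31.0 CPM in E3-10 and 19.4, 21.0, 18.6 and 18.6 CPM in E4-10 (-0.63, SE 0.10, edgeR adjusted p = 0.244, DESeq2 adjusted p = 8.41e-05). The groups did not overlap, with differences of -0.64 and -0.61 in the hindbrain-rich and the other libraries. Cp is on the meningeal, iron and reactive astrocyte lists. The other 19 iron and copper genes measured stood closer together: 15 of the 20 were below 0 (median -0.11). An unadjusted edgeR p under 0.05 in the lower direction was found for 2 (2.43% of all genes), Cp and the metallothionein Mt1 (-0.23, SE 0.10), and Mt1 overlapped.

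Pericyte and endothelial genes had medians nearer 0. Pericyte genes had 11 of 14 members below 0 with a median of -0.15. Of the 14, 3 were lower with an unadjusted edgeR p under 0.05 (2.43% of all genes) and 3 were lower within both kinds of library (3.54%). The 1 pericyte gene without overlap between groups (1.35% of all genes) was Vtn, vitronectin, at 86.8, 103, 86.6 and 93.9 CPM in E3-10 and 70.1, 65.4, 75.3 and 70.2 CPM in E4-10 (-0.42, SE 0.09). Rgs5, a regulator of G protein signalling that marks pericytes, was at 216, 187, 205 and 158 CPM and 191, 189, 211 and 199 CPM (0.03, SE 0.12). Pdgfrb, the receptor shared by pericytes and smooth muscle, was at 44.7, 52.0, 45.1 and 36.9 CPM and 38.0, 36.0, 38.7 and 51.2 CPM (-0.18, SE 0.13). Both overlapped, and the pericyte median was -0.08 without E3-10 1 and -0.10 without E4-10 2. Among 25 endothelial genes 22 were below 0 (median -0.15, and -0.06 without E3-10 1), 2 were lower with an unadjusted edgeR p under 0.05 and 3 were lower within both kinds of library. Vwf, von Willebrand factor of larger vessels, was the 1 member without overlap, at 31.3, 37.7, 29.5 and 23.4 CPM and 17.3, 16.9, 23.2 and 22.2 CPM (-0.69, SE 0.15), and the tight junction gene Cldn5 was at -0.15 (SE 0.16). Of 12 perivascular macrophage genes 10 were below 0 (median -0.47). Of the 12, 5 were lower within both kinds of library (3.54% of all genes), and 1, Cbr2, was lower with an unadjusted edgeR p under 0.05 (2.43%) and without overlap (1.35%). Mrc1, the mannose receptor, was at 5.11, 7.76, 7.59 and 5.61 CPM and 6.50, 4.41, 6.45 and 6.36 CPM (-0.26, SE 0.12), with overlap.

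**Figure D2:**
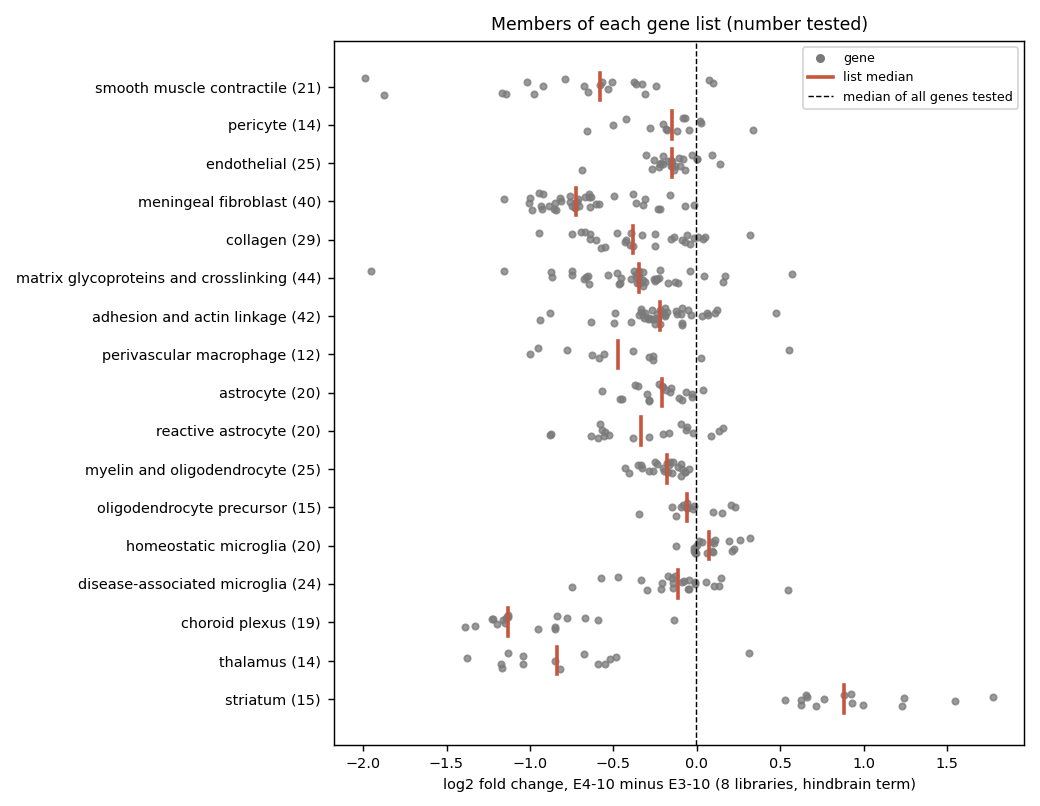
Log2 fold change (x axis, E4-10 minus E3-10, fit of the 8 libraries with the hindbrain term) of each gene of 17 lists (y axis, number tested in brackets), with a red bar at the list median and a dashed line at the median of all genes tested. Meningeal fibroblast genes lie below 0 throughout with a median of -0.72, smooth muscle genes have a median of -0.58 and pericyte genes one of -0.15, while choroid plexus, thalamus and striatum genes are shifted at -1.13, -0.84 and 0.88.

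Astrocyte genes had 19 of 20 members below 0 and a median of -0.21. Of the 20, 7 were lower with an unadjusted edgeR p under 0.05 (2.43% of all genes), 7 were lower within both kinds of library (3.54%) and 3 were without overlap (1.35%). Gjb6, the gap junction protein connexin 30, was at 77.9, 66.1, 77.1 and 68.9 CPM and 63.0, 58.8, 45.4 and 41.3 CPM (-0.45, SE 0.15). The groups did not overlap for this gene. Aqp4, the water channel of astrocyte endfeet at vessels, overlapped, at 508, 209, 296 and 517 CPM and 231, 403, 149 and 146 CPM (-0.46, SE 0.18), with the hindbrain-rich libraries highest in both groups. The list mean was 7.91, 7.55, 7.61 and 7.88 log2 CPM in E3-10 and 7.54, 7.65, 7.29 and 7.29 in E4-10. With the striatum list level added as a covariate the astrocyte median was -0.12.

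Reactive astrocyte genes had 17 of 20 members below 0 (median -0.33, and -0.18 without E3-10 2). Of the 20, 5 were lower with an unadjusted edgeR p under 0.05 (2.43% of all genes), 2 of them called by DESeq2, and 1, Cp, was without overlap (1.35%). Gfap, the intermediate filament raised in reactive astrocytes, was at 699, 245, 264 and 282 CPM in E3-10 and 257, 298, 109 and 178 CPM in E4-10 (-0.57, SE 0.33). The groups overlapped, and E3-10 1 stood far above the other 7. Vim, vimentin, was at 76.6, 68.8, 56.7 and 187 CPM and 38.1, 98.5, 35.9 and 42.7 CPM (-0.59, SE 0.24), highest in E3-10 4. Serping1, the C1 inhibitor of the complement cascade, was at 16.6, 21.0, 12.3 and 26.5 CPM and 9.37, 13.0, 7.98 and 8.11 CPM (-0.88, SE 0.21, DESeq2 adjusted p = 0.0417), overlapping in E3-10 3 and E4-10 2. Serping1 and Vim are also made by fibroblasts and cells of the vessel wall.

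Genes of oligodendrocytes and microglia overlapped between groups in nearly every case, as most of all genes tested did (1.35% lower and 0.549% higher without overlap). All 25 myelin genes were below 0 (median -0.18). Of the 25, 0 had an unadjusted edgeR p under 0.05 (4.1% of all genes) and 0 were free of overlap, both near the shares of all genes. Mbp, myelin basic protein, was at 9299, 3846, 4867 and 3632 CPM in E3-10 and 3425, 4683, 3398 and 4062 CPM in E4-10, high in E3-10 1 alone. Without E3-10 1 the myelin median was 0.04, and it was -0.34 without E3-10 2, -0.30 without E3-10 4, -0.28 without E4-10 4, -0.12 without E4-10 3 and -0.07 without E3-10 3. P2ry12, a purine receptor of resting microglia, was at 18.7, 40.7, 27.8 and 14.5 CPM and 41.4, 15.9, 48.2 and 39.2 CPM (0.19, SE 0.16), low in all 3 hindbrain-rich libraries. The 20 homeostatic microglia genes had a median of 0.08 with 6 below 0. Of the 20, 0 had an unadjusted edgeR p under 0.05, near the 4.1% of all genes. Leaving out 1 library moved that median between -0.06 (without E3-10 3) and 0.17 (without E3-10 1). Of 24 genes of disease-associated microglia 19 were below 0 (median -0.11, and -0.05 without E4-10 1, -0.06 without E3-10 2 and -0.07 without E3-10 1), and 4 were lower with an unadjusted edgeR p under 0.05 (2.43% of all genes). Axl, a receptor for dying cells, at 72.7, 71.3, 68.6 and 66.4 CPM and 66.3, 60.2, 58.3 and 57.0 CPM (-0.21, SE 0.09), and Gpnmb, a lysosome-linked glycoprotein, at 2.67, 3.45, 2.44 and 3.10 CPM and 2.19, 1.94, 1.80 and 1.94 CPM (-0.57, SE 0.20), were the 2 members without overlap (1.35% of all genes).

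Genes of other brain regions also differed between the 2 groups after the hindbrain term. Whether the groups differed in their content of these regions was not tested. Striatal genes were higher in E4-10 in 15 of 15 members (median 0.88, and 0.57 without E4-10 4). Of the 15, 6 had an unadjusted edgeR p under 0.05 (1.67% of all genes were higher at that p), 4 were higher within both kinds of library (2.28% of all genes) and 1 was without overlap (0.549%). The list mean was 3.88, 5.70, 5.81 and 3.70 log2 CPM in E3-10 and 5.91, 4.25, 7.01 and 7.41 in E4-10, low in the hindbrain-rich libraries and highest in E4-10 3 and E4-10 4. Isl1, a transcription factor of striatal and hypothalamic neurons, was the member without overlap, at 1.40, 2.50, 2.08 and 0.885 CPM and 5.50, 5.75, 5.21 and 8.23 CPM (1.78, SE 0.27, edgeR adjusted p = 0.244). The dopamine receptor Drd1 was at 1.16, 28.3, 36.8 and 1.45 CPM and 35.6, 2.55, 95.4 and 115 CPM (1.23, SE 0.35), and overlapped.

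Pituitary and hypothalamus genes were above 0 in 14 of 15 tested members (median 2.83, and 1.62 without E3-10 4 and 4.36 with the striatum covariate). Of all genes tested 51.2% were below 0. The list has 17 members, and 2 were not tested. A gene near 0 in E3-10, as Hcrt was, can pass the filter on low counts only through E4-10, which favours a change above 0. Of the 15, 7 were higher with an unadjusted edgeR p under 0.05 (1.67% of all genes) and 2 were higher without overlap (0.549%). The list mean was 1.09, 1.04, 0.70 and 0.62 log2 CPM in E3-10 and 2.55, 4.70, 0.67 and 2.49 in E4-10, so E4-10 3 lay inside the range of E3-10. The mean of E4-10, 2.60 ± 1.65, was the highest of the 6 groups, and that of E3-10, 0.86 ± 0.24, was close to those of E3-15 and E4-15 (SD, n = 4 each). Pmch, which encodes melanin-concentrating hormone, was at 0.204, 0.785, 0.670 and 0.124 CPM in E3-10 and 13.5, 20.0, 9.14 and 2.01 CPM in E4-10 (4.62, SE 0.79), and Hcrt, orexin, was at 0.102, 0.816, 0.108 and 0.106 CPM and 10.8, 18.8, 10.5 and 1.48 CPM (5.03, SE 0.93). Both, chosen from the list for their small p, separated the groups, with E4-10 4 the lowest of E4-10. Avp, vasopressin, overlapped through E4-10 3, at 0, 1.14, 0.692 and 0.602 CPM and 15.9, 5.46, 0.414 and 22.0 CPM. The pituitary hormone gene Gh was at 6099 CPM in E4-10 2 and at 5.73 to 75.9 CPM in the other 7 libraries. Gm41069, an uncharacterised gene, and Tmem158, a membrane protein, completed the 5 genes with the smallest p among those higher in E4-10, at 1.40 (SE 0.27) and 0.99 (SE 0.21), and both overlapped. Thalamic genes had 13 of 14 members below 0 (median -0.84), which rested on E3-10 3: the median was 0.06 without it and -1.49 without E4-10 2. Prkcd, a kinase abundant in thalamus, was at 35.8, 31.1, 273 and 74.3 CPM and 57.0, 59.7, 12.1 and 25.6 CPM.

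**Figure D3:**
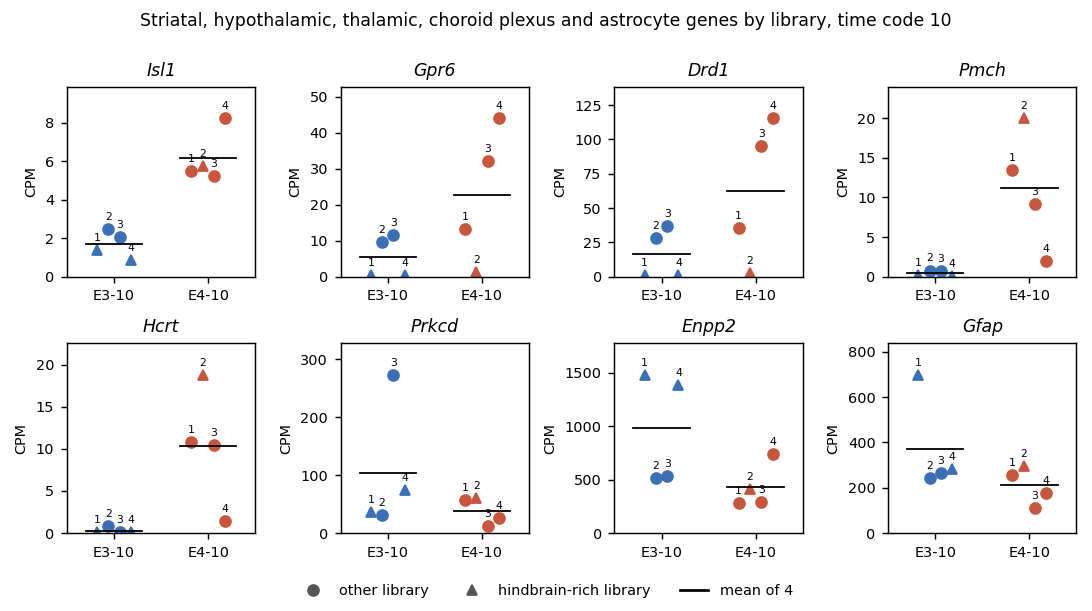
CPM (y axis, from 0) by library of the striatal genes Isl1, Gpr6 and Drd1, the hypothalamic genes Pmch and Hcrt, thalamic Prkcd, choroid plexus Enpp2 and astrocyte Gfap, drawn as in the plot of mural and meningeal genes. Isl1, Pmch and Hcrt are higher in all 4 E4-10 libraries, Drd1 and Gpr6 are lowest in the hindbrain-rich libraries (triangles), and Prkcd and Gfap are each high in 1 library of E3-10, at 273 and 699 CPM.

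Genes of the choroid plexus, which lies against meningeal tissue in the ventricles, were also lower in E4-10, in 19 of 19 members (median -1.13). The list mean was 4.86, 3.66, 3.42 and 4.95 log2 CPM in E3-10 and 2.34, 3.14, 1.10 and 4.09 in E4-10, so E4-10 4 lay inside the range of E3-10, and the spread between libraries was far wider than for meningeal genes. Ttr, transthyretin, was at 1615, 576, 440.5 and 1570.3 CPM and 103, 289.6, 9.61 and 870.1 CPM (-1.22, SE 1.12). Of the 19 genes 0 had an unadjusted edgeR p under 0.05, near the 4.1% of all genes. The median was -2.19 without E4-10 4 and -0.58 without E4-10 2. E4-10 4, the highest of E4-10 for choroid plexus genes, was also the highest of E4-10 for smooth muscle genes, was second to E4-10 2 for collagens (2.74, 3.19, 2.54 and 3.05 log2 CPM in E4-10), and lay below E4-10 1 and E4-10 2 for meningeal genes. With the choroid plexus list level as a covariate beside the hindbrain term, the medians were -0.66 for meningeal, -0.48 for smooth muscle and -0.10 for collagen genes, and Bmp6 was at -0.59. With the striatum list level instead they were -0.55 for meningeal and -0.62 for smooth muscle genes. Both covariates come from the same 8 libraries and were added after seeing the data. Their levels also differed between E3-10 and E4-10 (means 4.22 and 2.66 log2 CPM for choroid plexus, 4.77 and 6.14 for striatum). These fits therefore cannot tell such tissue content and the E code apart. The part of thalamic, hypothalamic and pituitary tissue in these differences was not tested.

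Meningeal and smooth muscle genes were lower in E4 at time code 10, with medians above 0 at the other time codes. In a fit of all 24 libraries with the hindbrain term the meningeal median of E4 minus E3 was 0.14 at time code 05, -0.69 at 10 and 0.26 at 15, with 7, 40 and 3 of 40 genes below 0. For smooth muscle genes it was 0.18, -0.58 and 0.19, with 2, 19 and 4 of 21 below 0. The smooth muscle list averaged 3.57 ± 0.18 log2 CPM in E3-10, the highest of the 6 groups, and 3.04 ± 0.14 in E4-10, the lowest (SD, n = 4 each). The other 4 groups averaged 3.11 to 3.34. For the meningeal list E3-10 averaged 4.47 ± 0.12 and E4-10 3.81 ± 0.15, with 3.87 to 4.18 in the other groups.

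**Figure D4:**
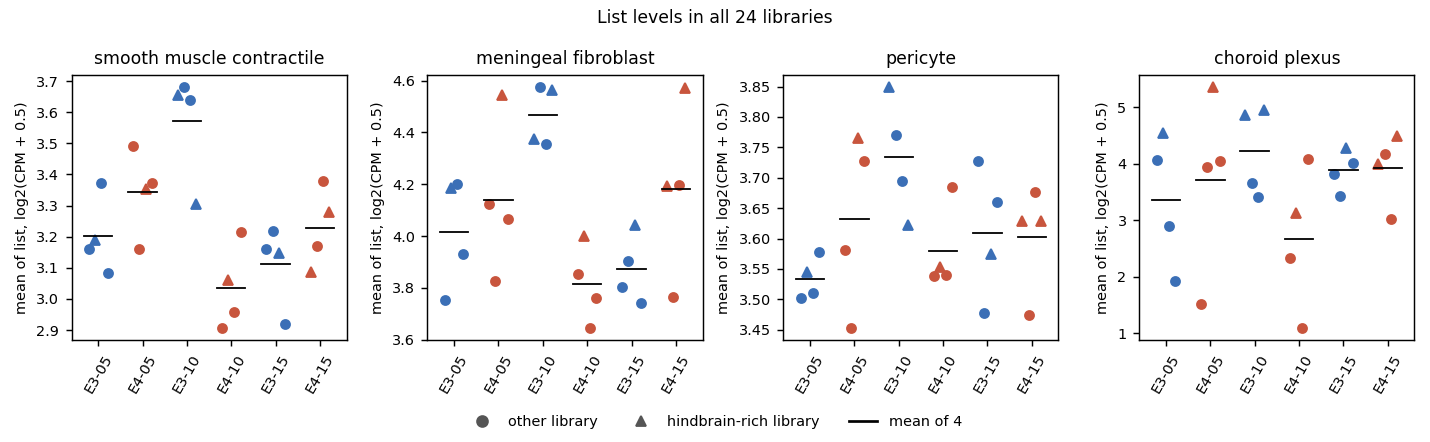
Mean log2(CPM + 0.5) of 4 gene lists (y axis, scaled to each list) in all 24 libraries by group (x axis), with triangles for hindbrain-rich libraries and a line at the mean of 4. For smooth muscle and meningeal genes E3-10 has the highest mean and E4-10 the lowest (3.57 and 3.04, 4.47 and 3.81), pericyte genes span a narrow range and choroid plexus genes a wide one within most groups.

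The difference of E4 minus E3 at time code 10 against the mean of time codes 05 and 15 was tested in the same fit of 20437 genes. Lmod1 passed (difference -1.43, SE 0.20, edgeR adjusted p = 0.00699), the 1 gene of all tested (0.00489%), and 826 genes (4.04%) had an unadjusted p under 0.05. E4 minus E3 for Lmod1 was 0.16 (SE 0.16) at 05, -1.13 (SE 0.16) at 10 and 0.43 (SE 0.16) at 15. Its call was lost without E3-10 2 (adjusted p = 0.0533), without the hindbrain term (0.165), without the hindbrain-rich libraries (0.274) and with terms for sets of adjacent columns (0.115), where the difference stayed between -1.59 and -1.33. The next smallest p were those of Cp (-0.67, SE 0.12, edgeR adjusted p = 0.0673), Bmp6 (-0.95, SE 0.17, edgeR adjusted p = 0.0673) and Itih2 (-1.42, SE 0.26, edgeR adjusted p = 0.0680). An unadjusted p under 0.05 in the lower direction was found for 32 of 40 meningeal and 13 of 21 smooth muscle genes, and for 2.79% of all genes. The test includes the same libraries of time code 10, so these counts are not independent of those of E4-10 against E3-10. Slc6a20a was at -0.94 (SE 0.19) and Vcl at -0.33 (SE 0.07).

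**Figure D5:**
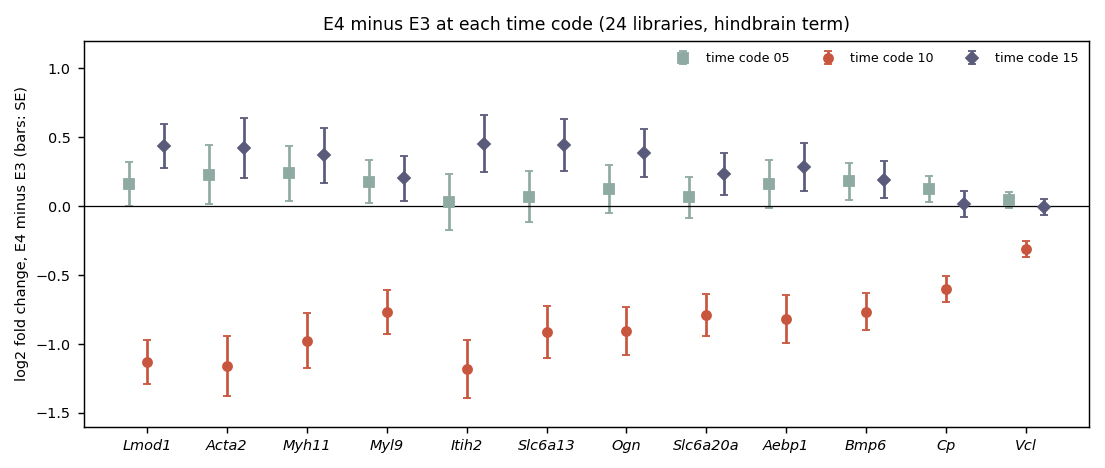
Log2 fold change of E4 minus E3 (y axis, bars are SE) for 12 mural, meningeal and neighbouring genes at time codes 05, 10 and 15, from the fit of 24 libraries with the hindbrain term. All 12 are below 0 at time code 10 and within 0.5 of 0 at the other time codes, with Lmod1 at -1.13 at time code 10, 0.16 at 05 and 0.43 at 15.

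The genes of the series title did not separate the groups. Apoe, the lipid carrier apolipoprotein E, was at 841, 1172, 966 and 992 CPM in E3-10 and 970.5, 821, 923 and 1005 CPM in E4-10 (-0.15, SE 0.11, and -0.07 without E3-10 2). Counts per gene do not tell alleles of Apoe apart. Asxl1, a chromatin regulator, was at 56.2, 58.8, 67.6 and 53.3 CPM and 63.3, 56.5, 63.0 and 65.7 CPM (0.03, SE 0.08), with a sign that turned when E3-10 2 was left out (-0.02). Nr1h3, the liver X receptor alpha, was at 4.97, 3.73, 3.52 and 7.95 CPM and 3.03, 5.74, 2.81 and 3.04 CPM (-0.25, SE 0.18, and -0.14 without E3-10 4). All 3 overlapped between groups.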

How the data were processed

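Polyadenylated RNA of mouse brain was sequenced in 24 libraries, 8 of them used for the comparison. Per the submitters' processing notes, the authors used HISAT2 2.1.0, featureCounts 2.0.6 and the build mm39. The annotation and strand setting are not given in the sources used here. The deposited table holds raw counts for 40836 gene symbols, and columns were joined to libraries by the header number in their labels. Among counts from 1 to 19, between 62.6% and 68.7% were even in the 8 libraries.

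The main fit was edgeR 4.0.16 (R 4.3.3) quasi-likelihood on the 8 libraries with filterByExpr, TMM factors, a hindbrain term and 5 residual degrees of freedom. The threshold was a Benjamini-Hochberg adjusted p under 0.05 over 18778 genes. The spread between libraries was a coefficient of variation of 23.5% with the hindbrain term and 36.2% without. A second fit of all 24 libraries (20437 genes, 17 residual degrees of freedom) tested the difference between time codes. Levels are CPM on TMM factors over 24 libraries, and list means and differences within region use log2(CPM + 0.5).

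The members and the 27 gene lists were chosen with earlier results of these data known. Of 602 list entries 599 are in the table. Named genes were the 4 markers given for the comparison, the 5 smallest p in each direction, up to 4 smallest p per list, 3 genes of the title and 4 of the time code difference. Further genes were chosen after their values were seen. Libraries that share a number did not deviate together (correlations 0.0279, 0.180, -0.482 and 0.120 for numbers 1 to 4), so the number was not used as a block. Alternatives were DESeq2 1.42.0, limma-voom (limma 3.58.1), RLE and upper-quartile factors, other filters, halved counts, other terms and thresholds, and each library left out. The covariates of choroid plexus and striatum level were added after seeing the data. The edgeR fit of the 8 libraries was run on simulated counts with known changes. The fit of 24 libraries, DESeq2 and limma-voom were not. Promoter letters come from RefSeq (GRCm38.p6), and no position on mm39 is given.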

Additional observations from a re-analysis of the deposited data

Results flagged for a closer look

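In 88 groups of 4 libraries (genes and list means of the comparison) 11 had 1 library far from the other 3 by Dixon's criterion. Chance gives about 1 in 20 for independent groups, and these groups share libraries and genes, so the rates cannot be compared. In E3-10 these were Vcl at 65.8 CPM in E3-10 3 (others 59.9 to 60.6) and Hcrt at 0.816 CPM in E3-10 2 (others 0.102 to 0.108). List means far from the rest of E3-10 were smooth muscle at 3.30 log2 CPM in E3-10 4 (others 3.64 to 3.68), matrix genes at 3.51 in E3-10 3 (3.66 to 3.67) and iron and copper genes at 5.19 in E3-10 1 (4.93 to 4.94). In E4-10, the hindbrain-rich E4-10 2 stood apart for Itih2 at 5.02 CPM (others 2.77 to 2.99), Nr1h3 at 5.74 CPM (2.81 to 3.04), adhesion genes at 5.02 log2 CPM (4.86 to 4.88) and cerebellum and hindbrain genes at 7.51 (3.06 to 3.52). The last was fixed in advance, since E4-10 2 was named hindbrain-rich from its expression. Pericyte genes were at 3.69 in E4-10 4 (others 3.54 to 3.55) and endothelial genes at 4.95 in E4-10 1 (5.02 to 5.03).

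Lmod1 differed in E4 minus E3 between time code 10 and the mean of 05 and 15, by -1.43 on the log2 scale in edgeR's test of that difference.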

How the results depend on the processing

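The count of genes called in E4-10 against E3-10 was 0 in edgeR and 8 without a filter on low counts (7 lower, 1 higher), 65 with DESeq2 and 2 in the fit of 24 libraries with the hindbrain term (Lmod1 and Cp, both lower). It ranged from 0 to 2 when 1 library was left out, with 2 higher genes without E4-10 1, and was 0 under the other 15 alternatives. For the difference between time codes 1 gene passed, against 48 with DESeq2 (46 lower), and 0 without the hindbrain term, without the hindbrain-rich libraries or with terms for column sets. Leaving out 1 library gave 0 (without E3-10 2) to 17 (without E4-05 2), with 11 without E3-10 1, 10 without E3-05 3, 3 without E4-15 1 and 2 without E4-05 3 or E4-10 4. Asxl1 ranged from -0.021 (without E3-10 2) to 0.089 (without E3-10 3) and was -2.89e-05 with the striatum covariate. With the library number as a replicate block 0 genes were called in the comparison (536 at an unadjusted p under 0.05) and 1 in the difference between time codes. The meningeal median stayed between -0.88 and -0.55 and the smooth muscle median between -0.72 and -0.48 over all alternatives and libraries left out. Genes under about 1 CPM, such as Hcrt in E3-10, rest on few counts. Many counts were even, so the fragments behind a count may be fewer than the count. With 4 libraries per group and 3 that differ in region, the E code and uneven tissue content cannot be told apart where they coincide.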

Other observations

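Among the 48 genes that DESeq2 called lower in E4-10, 18 were on none of the gene lists. They included the collagen uptake receptor Mrc2 (DESeq2 log2 fold change -0.70, SE 0.14), the lipid droplet coat protein Plin4 (-0.93, SE 0.20) and the betaine and GABA transporter Slc6a12 (-1.51, SE 0.33). Also among them were the secreted protease Adamts1 (-0.50, SE 0.12), the cytochrome Cyp1b1 (-0.71, SE 0.17) and the secreted serpin Serpinf1 (-0.67, SE 0.17). Of the 17 called higher 12 were on no list. Rxrg, a retinoid X receptor of striatal neurons, was at 1.49 (SE 0.32), the opioid peptide precursor Pdyn at 1.24 (SE 0.32) and Dlx2, a transcription factor of inhibitory neurons, at 1.75 (SE 0.45). These genes were chosen after their values were seen, edgeR called 0 of them, and their part in tissue content was not tested.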
